A study of Mus musculus with 6 samples.

Results

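The CC chemokines are small secreted proteins that attract leukocytes, and 10 of their genes are followed here: Ccl2, Ccl3, Ccl4, Ccl5, Ccl6, Ccl7, Ccl8, Ccl9, Ccl12 and Ccl24. They were taken by symbol from the deposited gene tables, where all 10 were found among 17191 genes. All 10 also passed the filter on low counts that left 12721 genes for testing. RNA was sequenced from cells of subcutaneous tumours grown from CT26, a mouse colorectal carcinoma line, in female BALB/c mice aged 6 to 8 weeks. The TP-18 group (3 libraries) received TP-18 (a code name; no structure is used here) orally at 50 mg/kg once daily for 3 weeks, and the vehicle group (3 libraries) received vehicle over the same time. Treatment began at tumour volumes of 100 to 200 mm3, and no transgene or engineered allele is named for either group.

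The labels describe the sequenced cells in different ways: as flow-sorted CD11b+F4/80+CD206+ macrophages in the design text, as bead-selected CD11b+ cells in the treatment protocol, and as the CT26 line in the sample characteristics. All 12 macrophage markers examined were detected in every library. C1qa, a complement subunit made by macrophages, had 1042, 624 and 1233 FPKM (a level per gene length and library total) in TP-18 libraries, against 1366, 404 and 1425 FPKM in vehicle libraries. Epithelial markers were uneven: Krt20 and Sox9 were the most abundant, while Krt19 and Cldn4 had no count in at least 1 library. No label ties a library to its own mouse. The p-values below therefore set the group difference only against the spread between these samples, and that spread may be technical. Total counts ran from 17135001 to 17597645 in TP-18 libraries and from 16371128 to 17004480 in vehicle libraries. Likeness between libraries crossed the groups, as measured by the correlation of log2 CPM (counts scaled to library size) across genes. Vehicle 1 correlated at 0.966 with TP-18 1, 0.970 with TP-18 3 and 0.944 with TP-18 2. Its values were 0.946 with vehicle 2 and 0.955 with vehicle 3. TP-18 2 correlated at 0.964 with vehicle 2 and 0.957 with vehicle 3, against 0.973 with TP-18 1 and 0.952 with TP-18 3.

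CC chemokines carry adjacent cysteines near the amino terminus and act through G protein-coupled receptors on the target cell. In tumours, macrophages are both a source of them and a cell that they recruit: ligands of Ccr2 bring monocytes out of the blood, and ligands of Ccr1 attract monocytes, macrophages and T cells. Ccl2, Ccl7 and, in the mouse, Ccl12 bind Ccr2. Mouse Ccl8 signals through Ccr8. Ccl3 and Ccl5 bind Ccr1, as do the rodent chemokines Ccl6 and Ccl9, Ccl4 attracts monocytes and T cells, and Ccl24 is an eotaxin that attracts eosinophils through Ccr3. Many of these genes are induced by inflammatory stimuli, while Ccl24 is known as a gene that interleukin-4 induces in macrophages.

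On GRCm38, 9 of the 10 genes lie in a pair of clusters on chromosome 11, all annotated as protein-coding. The first holds Ccl2 (Entrez 20296, 82035571 to 82037453), Ccl7 (20306, 82045712 to 82047525), Ccl12 (20293, 82101845 to 82103400) and Ccl8 (20307, 82115185 to 82116799), all on the plus strand. The second holds Ccl5 (20304, 83525778 to 83530518), Ccl9 (20308, 83572919 to 83578636), Ccl6 (20305, 83587882 to 83593087) and Ccl3 (20302, 83647844 to 83649355) on the minus strand, and Ccl4 (20303, 83662584 to 83664683) on the plus strand. Ccl24 (56221) lies apart, on chromosome 5 at 135569937 to 135573049, minus strand. The annotated exons of the 10 genes overlapped those of no other gene on either strand. A stretch of 50 bases shared with transcripts of another gene was found only in Ccl9, in 59 of its 2996 stretches (1.97%).

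RefSeq promoter windows on GRCm38.p6, from 250 bases before to 50 after the gene start, were held for 5 of the 10 genes (Ccl3, Ccl6, Ccl8, Ccl9 and Ccl12). The 4 below are the windows of neighbouring pairs. Ccl12 and Ccl8 had positive log2 fold changes, although the 95% interval of Ccl8 ran from -0.83 to 1.48. Ccl6 and Ccl9 were both highest in vehicle 2 and vehicle 3. Each window reads 5′ to 3′ along the gene, and capitals mark runs of at least 9 bases that also occur in the window of the other gene of the pair. The windows lie at chr11:82101595-82101894 (Ccl12, plus strand), chr11:82114935-82115234 (Ccl8, plus strand), chr11:83593038-83593337 (Ccl6, minus strand) and chr11:83578587-83578886 (Ccl9, minus strand).
Ccl12: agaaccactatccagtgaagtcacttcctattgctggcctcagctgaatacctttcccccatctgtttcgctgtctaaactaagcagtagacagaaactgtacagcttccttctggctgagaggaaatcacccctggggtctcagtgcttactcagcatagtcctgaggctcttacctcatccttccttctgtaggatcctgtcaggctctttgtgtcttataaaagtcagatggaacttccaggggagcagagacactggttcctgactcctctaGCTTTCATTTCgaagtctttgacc
Ccl8: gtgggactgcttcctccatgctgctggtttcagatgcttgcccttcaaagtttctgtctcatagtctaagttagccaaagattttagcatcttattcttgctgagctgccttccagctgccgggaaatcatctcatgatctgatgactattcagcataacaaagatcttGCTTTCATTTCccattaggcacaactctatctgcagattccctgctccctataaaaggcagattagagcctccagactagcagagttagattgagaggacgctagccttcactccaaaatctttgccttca
Ccl6: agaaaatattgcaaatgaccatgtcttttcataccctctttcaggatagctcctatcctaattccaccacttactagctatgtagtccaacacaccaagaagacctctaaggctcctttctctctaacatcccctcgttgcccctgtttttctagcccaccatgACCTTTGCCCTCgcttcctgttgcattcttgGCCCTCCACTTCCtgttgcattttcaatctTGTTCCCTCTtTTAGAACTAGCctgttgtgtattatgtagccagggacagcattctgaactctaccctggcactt
Ccl9: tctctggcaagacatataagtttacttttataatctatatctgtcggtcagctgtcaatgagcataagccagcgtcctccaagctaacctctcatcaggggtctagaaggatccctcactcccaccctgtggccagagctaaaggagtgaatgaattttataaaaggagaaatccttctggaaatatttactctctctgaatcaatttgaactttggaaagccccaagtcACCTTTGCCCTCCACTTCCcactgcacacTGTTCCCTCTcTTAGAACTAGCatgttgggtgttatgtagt

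In the Ccl6 window 46 of 300 bases fell in runs shared with Ccl9, and in the Ccl9 window 40 did. The counts of windows holding a run, given next, include the windows of the pair itself. Sharing between other pairs of windows was not measured, so these counts do not show whether such sharing is unusual. Their longest shared run, GCCCTCCACTTCC, occurred in 3 of 32851 promoter windows of the genome (0.00913%). Ccl12 and Ccl8 shared 1 run, GCTTTCATTTC, which lay after the gene start in Ccl12 and before it in Ccl8 and occurred in 13 windows (0.0396%). On both strands of the 5 windows the kappa B consensus of NF-kB was found in 1, that of Ccl9, as GGAAAGCCCC from base -35, against 8.46% of all windows. The AP-1 motif TGANTCA was found in the same window from base -53 and in no other of the 5, against 7.81% of all windows. These matches did not overlap. The STAT motif TTC and GAA spaced by 4 bases was in 0 of the 5 (6.95% of all windows), as was its form spaced by 3 bases (8.30%) and the interferon response motif of GAAA repeated after 2 bases (3.44%).

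Compared by level per gene length, Ccl2 was the most abundant of the 10 in TP-18 libraries, at 379 FPKM on average (range 286 to 428), and Ccl6 in vehicle libraries, at 588 FPKM (159 to 921). In TP-18 libraries the order was Ccl2, Ccl7, Ccl6, Ccl4, Ccl3, Ccl8, Ccl9, Ccl12, Ccl5 and Ccl24, and in vehicle libraries Ccl6, Ccl2, Ccl7, Ccl3, Ccl4, Ccl9, Ccl8, Ccl12, Ccl5 and Ccl24. Most neighbours in these orders overlapped in range. The exceptions were Ccl5, below Ccl12 in TP-18 libraries (12.8 to 31.7 against 54.6 to 91.8 FPKM), and Ccl12, below Ccl8 in vehicle libraries (25.2 to 41.9 against 53.9 to 185 FPKM). Ranges leave out the order within a library: Ccl2 exceeded Ccl7 in every library, at FPKM ratios from 1.21 (TP-18 3) to 1.88 (TP-18 2). Ccl24 was last in both groups, at 7.87 FPKM in TP-18 and 20.4 FPKM in vehicle libraries.

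The summed level of the 10 genes was 1225, 1711.5 and 1891 FPKM in TP-18 libraries 1, 2 and 3, against 1666, 2913 and 2239 FPKM in vehicle libraries 1, 2 and 3. The groups overlapped, since vehicle 1 lay within the range of the TP-18 libraries. Ccl6 and Ccl9 together made up 20.6%, 30.1% and 14.7% of the sum in TP-18 libraries, against 14.9%, 40.03% and 37.6% in vehicle libraries. Ccl2, Ccl7, Ccl8 and Ccl12, the first cluster, made up 51.6%, 51.3% and 57.3% of it in TP-18 libraries, against 50.1%, 32.4% and 40.8% in vehicle libraries. Thus vehicle 2 and vehicle 3 carried the larger share of Ccl6 and Ccl9, and vehicle 1 had shares near those of TP-18 libraries.

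**Figure D1:**
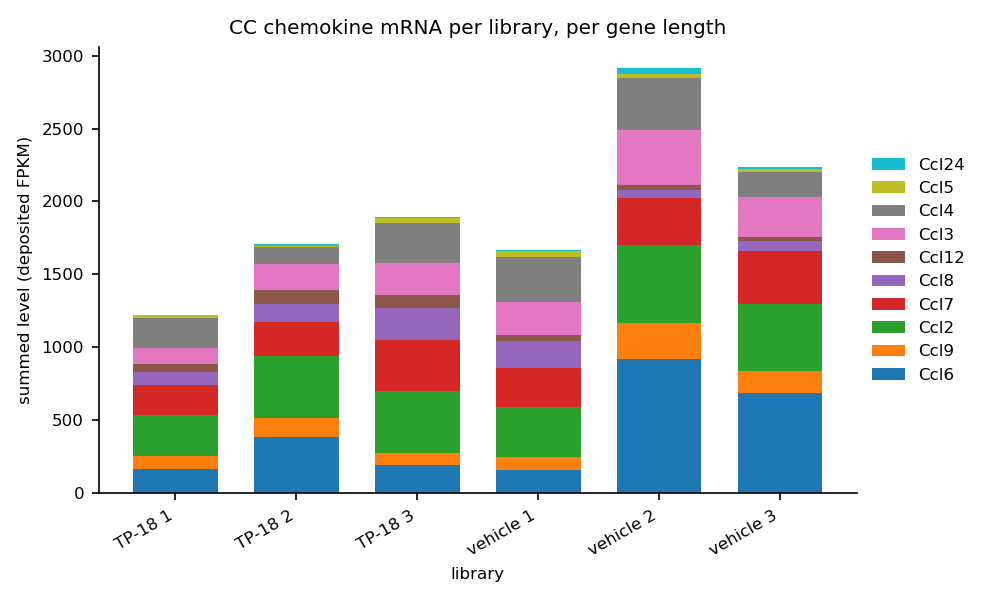
Summed level of the 10 CC chemokine genes in each library, in deposited FPKM (y axis), stacked by gene, with the TP-18 libraries left of the vehicle libraries. The tallest bar is vehicle 2 at 2913 FPKM and the lowest is TP-18 1 at 1225 FPKM, and the Ccl6 segment varies most between bars.

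The comparison of TP-18 with vehicle asked whether expression of these chemokines differed after 3 weeks of treatment. With edgeR's quasi-likelihood test, adjusted by Benjamini-Hochberg over all 12721 genes at a threshold of 0.05, 0 of the 10 genes passed, where 0.11% of all genes did (0.0236% higher and 0.0865% lower). At an unadjusted p under 0.05 there were 5 of the 10, with Ccl12 higher and Ccl3, Ccl6, Ccl9 and Ccl24 lower, where 16.3% of all genes reached it (7.56% higher and 8.7% lower). This count was 8 without vehicle 1 and 2 without vehicle 2, without TP-18 1, with library totals as scaling or in any of 3 limma fits. Log2 fold changes were negative for 8 of the 10, against 47.4% of all genes, and their median was -0.69, against 0.02 over all genes. In 2 of the 10 the groups did not overlap, Ccl12 (higher) and Ccl3 (lower), where 23.3% of all genes showed this in either direction (11.6% higher and 11.7% lower). DESeq2 called the same pair, Ccl12 at an adjusted p = 0.0145 and Ccl3 at 0.0182, where it called 3.69% of all genes (1.18% higher and 2.51% lower).

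Among the monocyte-attracting genes of the first cluster, Ccl12 had a positive log2 fold change, and Ccl2 and Ccl7 had negative ones. The difference between these genes was not tested. Ccl12 had 27.7, 46.2 and 45.1 CPM in TP-18 libraries, against 23.3, 20.6 and 14.6 CPM in vehicle libraries. Every TP-18 library was above every vehicle library, although TP-18 1 exceeded vehicle 1 only slightly. Means were 39.7 ± 10.3 CPM in TP-18 and 19.5 ± 4.47 CPM in vehicle libraries (SD, n = 3 each). On the log2 scale the difference was 1.02 ± 0.26 (SE; 95% interval 0.43 to 1.61), with an edgeR adjusted p = 0.169. Over 15 alternatives the fold change stayed positive, between 0.84 and 1.22, with an adjusted p from 0.0145 to 0.351.

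Ccl2, the main monocyte attractant bound by Ccr2, had 218, 324 and 319.6 CPM in TP-18 libraries, against 289, 461 and 399 CPM in vehicle libraries. The groups overlapped because vehicle 1 lay below TP-18 2 and TP-18 3. Its log2 fold change was -0.41 ± 0.23 (95% interval -0.94 to 0.11, edgeR adjusted p = 0.406). Ccl7, a second Ccr2 ligand and the nearest neighbour of Ccl2, had 157, 171 and 262 CPM in TP-18 libraries, against 218, 275 and 314 CPM in vehicle libraries. Only TP-18 3 reached into the vehicle range, and the log2 fold change was -0.45 ± 0.23 (-0.99 to 0.09, edgeR adjusted p = 0.380).

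The ratio of Ccl12 to Ccl2 within a library does not depend on how libraries are scaled. In FPKM it was 0.191, 0.214 and 0.212 in TP-18 libraries, against 0.121, 0.0673 and 0.0551 in vehicle libraries. The TP-18 values lay close together and above all 3 vehicle values. The ratio of Ccl12 to Ccl3 was 0.485, 0.512 and 0.423 in TP-18 libraries, against 0.184, 0.0950 and 0.0907 in vehicle libraries. Both ratios were chosen after the values were seen and are given without a test.

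Ccl8, a mouse ligand of Ccr8, had 40.8, 62.0 and 105 CPM in TP-18 libraries, against 98.5, 29.4 and 38.2 CPM in vehicle libraries. High values occurred in both groups, in TP-18 3 and vehicle 1. The log2 fold change of 0.33 ± 0.50 had an interval from -0.83 to 1.48 (edgeR adjusted p = 0.776), which spans changes in either direction. Without TP-18 3 it was -0.11, and without vehicle 1 it was 1.01.

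**Figure D2:**
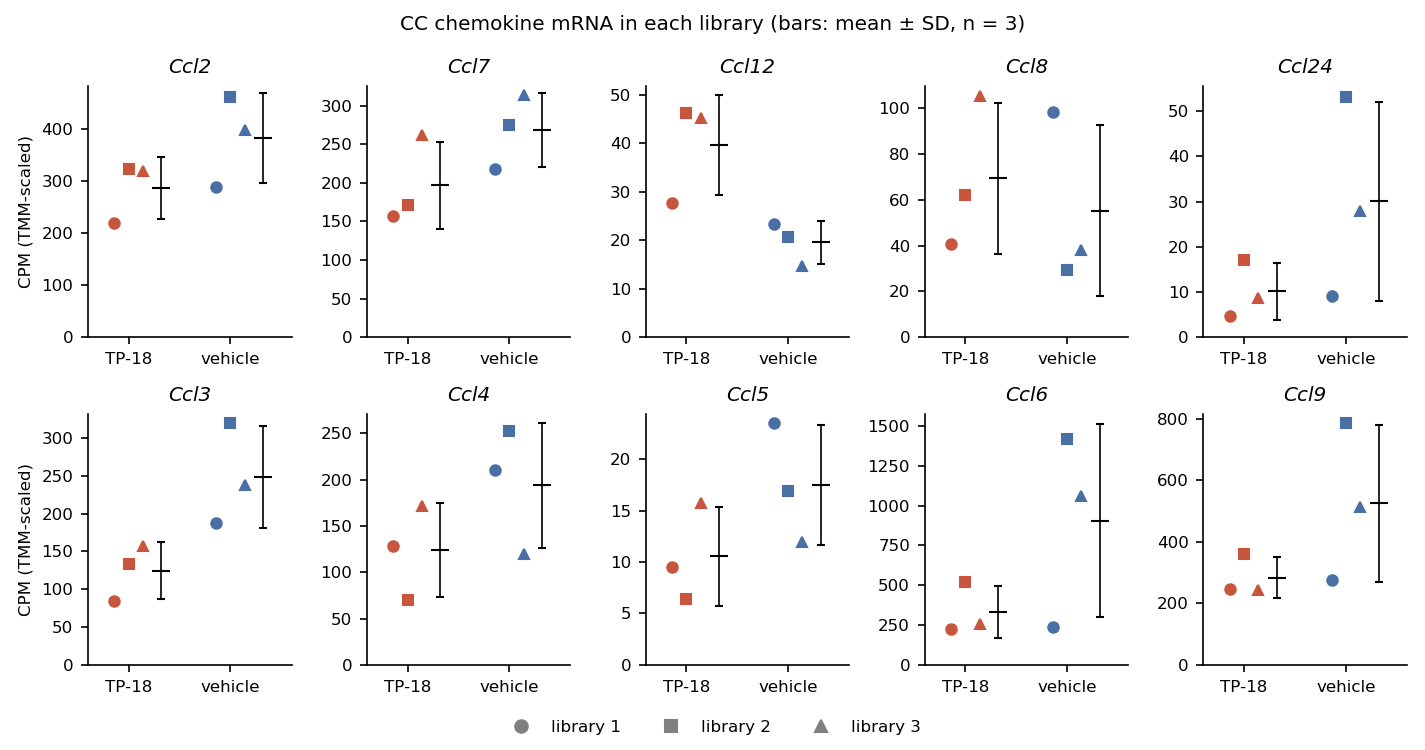
TMM-scaled CPM (y axis, from 0) of each of the 10 genes in the 3 TP-18 libraries (red) and the 3 vehicle libraries (blue), with marker shape for the library number and bars for the mean ± SD. Ccl12 lies at 27.7 to 46.2 CPM in TP-18 and 14.6 to 23.3 CPM in vehicle libraries, and Ccl3 at 84.3 to 157 and 187 to 320.2 CPM, whereas the groups overlap in the other 8 panels.

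Among Ccl3, Ccl4 and Ccl5 of the second cluster, Ccl3 had the clearest separation. Ccl3, an attractant of monocytes and T cells, had 84.3, 133 and 157 CPM in TP-18 libraries, against 187, 320.2 and 238 CPM in vehicle libraries. Every TP-18 library was below every vehicle library. Means were 125 ± 37.1 CPM in TP-18 and 248 ± 67.2 CPM in vehicle libraries (SD, n = 3 each). On the log2 scale the difference was -0.99 ± 0.28 (95% interval -1.63 to -0.35, edgeR adjusted p = 0.198). It was negative in all 15 alternatives, from -1.19 to -0.77, with an adjusted p from 0.0182 to 0.548.

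Ccl4, the neighbour of Ccl3, had 129, 70.4 and 171 CPM in TP-18 libraries, against 209.96, 252 and 120.02 CPM in vehicle libraries. TP-18 1 and TP-18 3 were above vehicle 3, so the groups overlapped. The log2 fold change was -0.65 ± 0.37 (-1.50 to 0.20, edgeR adjusted p = 0.417). Ccl5, which T and NK cells also make, had 9.48, 6.40 and 15.8 CPM in TP-18 libraries, against 23.5, 16.9 and 11.9 CPM in vehicle libraries, and its log2 fold change was -0.73 ± 0.37 (-1.59 to 0.14, edgeR adjusted p = 0.380). In both genes TP-18 2 was the lowest library. The summed level of 15 T and NK cell markers was 23.0, 10.0 and 22.8 FPKM in TP-18 libraries, against 31.9, 14.1 and 13.4 FPKM in vehicle libraries, and 6 of the 15 (Cd3d, Cd3g, Cd8a, Cd8b1, Ncr1 and Ifng) had no count in at least 1 library. The part of these cells in the Ccl5 values was not tested.

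Ccl6 and Ccl9, the rodent ligands of Ccr1, varied within the vehicle group more than most members. Ccl6 had 225, 521 and 257 CPM in TP-18 libraries, against 237, 1415 and 1063 CPM in vehicle libraries. Vehicle 2 and vehicle 3 were far above the rest, and vehicle 1 lay between TP-18 1 and TP-18 3, so that the highest vehicle library exceeded the lowest 5.97-fold. The log2 fold change was -1.44 ± 0.61 (95% interval -2.85 to -0.03, edgeR adjusted p = 0.301). Without vehicle 1 it was -1.92, and over the 15 alternatives it ran from -1.92 to -0.98.

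Ccl9 had 248, 360.4 and 243 CPM in TP-18 libraries, against 278, 788 and 512 CPM in vehicle libraries. Here too vehicle 2 and vehicle 3 were above all TP-18 libraries and vehicle 1 was among them. Its log2 fold change was -0.89 ± 0.36 (-1.72 to -0.06, edgeR adjusted p = 0.285). Ccl24, the eosinophil attractant and the last of the 10 in mean FPKM, had 4.69, 17.1 and 8.57 CPM in TP-18 libraries, against 9.03, 53.1 and 27.9 CPM in vehicle libraries. Its log2 fold change was -1.57 ± 0.66 (-3.10 to -0.03, edgeR adjusted p = 0.301), on counts of 87 to 316 in TP-18 and 147 to 844 in vehicle libraries. That fold change was -0.89 without vehicle 2 and -2.18 without TP-18 2, so its size rested on these libraries. Eosinophil markers were near absent: 7 of 8 were in the tables, none passed the filter, and their summed level was 0.5 to 2.0 FPKM in TP-18 and 1.0 to 4.0 FPKM in vehicle libraries.

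**Figure D3:**
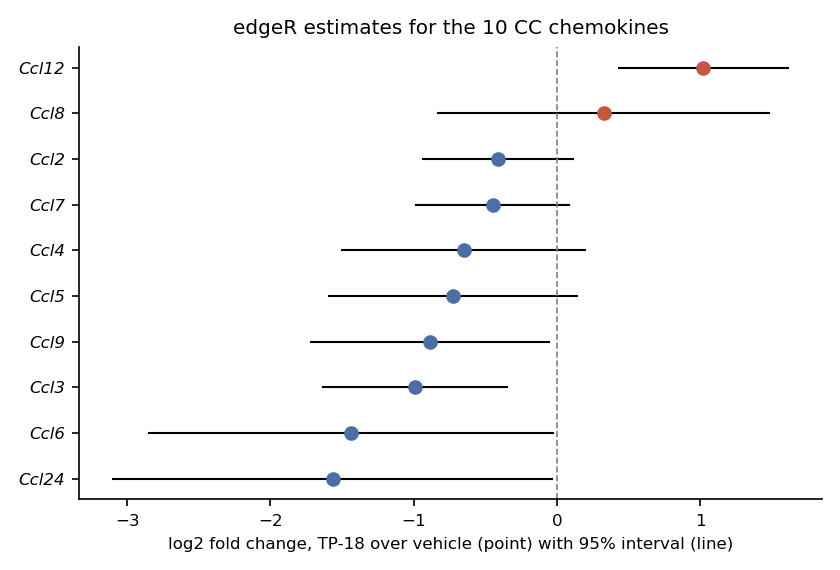
Log2 fold change of TP-18 over vehicle from edgeR for each of the 10 genes (points; red above 0, blue below) with 95% intervals (lines). Intervals for Ccl12, Ccl3, Ccl9, Ccl6 and Ccl24 do not reach 0, and 0 of the 10 genes passed after adjustment over all genes.

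Set side by side by library, the 10 genes fell into a few patterns. Likeness was measured as the root mean square difference between log2 CPM profiles over the 6 libraries, each centred on the gene's mean. The most alike pairs were Ccl2 and Ccl7 (0.23), Ccl4 and Ccl5 (0.25) and Ccl6 and Ccl24 (0.31), and the least alike were Ccl8 and Ccl24 (1.66) and Ccl6 and Ccl8 (1.64). Ccl6 and Ccl9 differed by 0.49, and Ccl9 was nearer to Ccl2 (0.36). The likeness of Ccl6 and Ccl24 joins genes on different chromosomes, while Ccl12 and Ccl2, in 1 cluster, had fold changes of opposite sign. The interval of Ccl2 included 0. In the vehicle libraries Ccl8 ran against Ccl6: relative to their means, Ccl8 was at 0.82 and Ccl6 at -0.99 in vehicle 1, Ccl8 at -0.92 and Ccl6 at 1.59 in vehicle 2, and Ccl8 at -0.54 and Ccl6 at 1.18 in vehicle 3. In TP-18 libraries they were opposed only in TP-18 3 (Ccl8 0.92, Ccl6 -0.87). For Ccl6 and Ccl8 the vehicle libraries thus differed among themselves by more than the group means did.

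**Figure D4:**
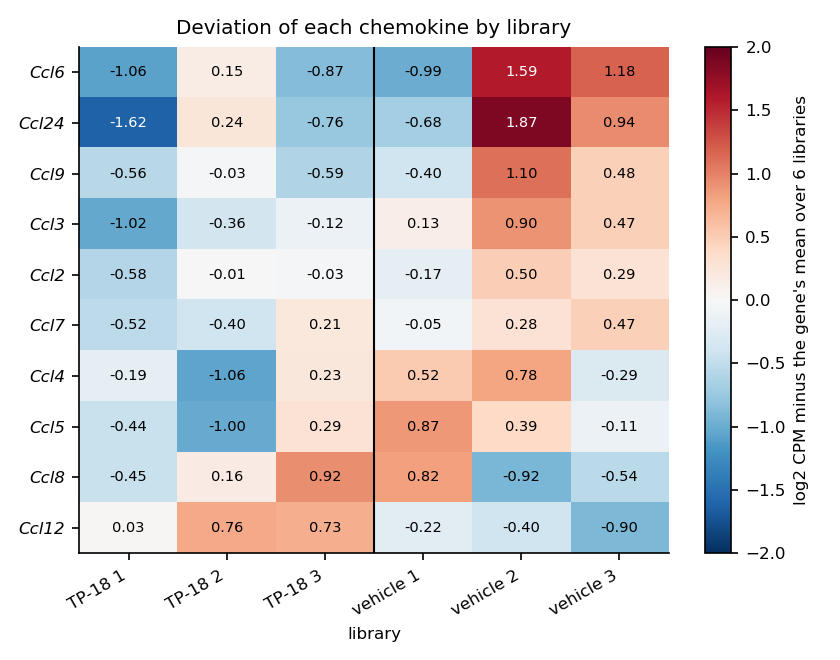
Log2 CPM of each gene minus its mean over the 6 libraries (color and printed value), with TP-18 libraries left of the line and vehicle libraries right of it. Ccl6, Ccl24 and Ccl9 are highest in vehicle 2 and vehicle 3, Ccl4 and Ccl5 are lowest in TP-18 2, and Ccl12 is above its mean in all 3 TP-18 libraries and below it in all 3 vehicle libraries.

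Among 9185 genes with a mean of at least 10 CPM, the gene most like Ccl6 was Clec10a, a lectin of macrophages and dendritic cells, at a difference of 0.19, followed by Rgcc (0.23) and Ms4a8a (0.28). Clec10a had 5.66, 17.1 and 6.28 CPM in TP-18 libraries, against 5.84, 33.6 and 33.7 CPM in vehicle libraries, so that it shared with Ccl6 the low vehicle 1 and the high vehicle 2 and vehicle 3. Ccl24 was nearest to B3gnt5 (0.21), Tnfsf14 (0.27) and Ccl6. Ccl9 was nearest to Pdpn (0.16), Pcdh7 and Ninj1. Ccl12 was nearest to Rubcn (0.20), Uaca (0.21) and Tmem200a (0.23). In each of these the TP-18 libraries were all above the vehicle libraries, which a choice by likeness to Ccl12 favours.

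Ccl3 was nearest to Btg1 (0.21), the costimulatory ligand gene Cd80 (0.23) and Plaur (0.23), which encodes the urokinase receptor, and the TP-18 libraries were below the vehicle libraries in all 3. For Ccl2 the nearest were Antxr2 (0.08), Plekhn1 and the leukocyte tetraspanin gene Cd53, and for Ccl7 Gucd1 (0.10), Metrnl and Rab32. Ccl5 was nearest to the transcription factor gene Klf2 (0.20), H2-Q7 and Ccl4, and Ccl4 to Ccl5, Asns and Uqcrq. Ccl8 had the least close match, Gbp8 at 0.29, followed by Msh5 and Zbtb40. As the nearest of many genes over 6 libraries, these matches are a description of the libraries. The matches of Ccl12 and Ccl3 were picked by profile, so their separation of the groups follows largely from that choice. Over all genes the groups were separated in 11.6% (higher) and 11.7% (lower).

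The receptors of these ligands were measured in the same libraries. Of 9 CC receptor genes examined 3 passed the filter, 0 passed the edgeR test, and Ccr4, Ccr6, Ccr8, Ccr9 and Ccr10 had no count in at least 1 library. Ccr1, which binds Ccl3, Ccl5, Ccl6 and Ccl9, had 31.0, 34.9 and 44.0 FPKM in TP-18 libraries, against 48.2, 65.7 and 110.4 FPKM in vehicle libraries, with all TP-18 values below all vehicle values (log2 fold change -1.22 ± 0.31, edgeR adjusted p = 0.178). Ccr2, the receptor of Ccl2, Ccl7 and Ccl12 and a marker of monocytes, had 8.996, 7.34 and 25.3 FPKM in TP-18 libraries, against 6.33, 3.39 and 2.29 FPKM in vehicle libraries. Every TP-18 library was above every vehicle library (log2 fold change 1.62 ± 0.53, edgeR adjusted p = 0.230), and without TP-18 3 the log2 fold change was 0.87. Over all genes 11.6% were separated as Ccr2 was (higher) and 11.7% as Ccr1 was (lower). DESeq2 called both receptors, where it called 3.69% of all genes. Over the 15 alternatives the adjusted p ran from 0.00566 to 0.548 for Ccr1 and from 0.0203 to 0.536 for Ccr2. The other monocyte markers did not share this separation: of the 10 listed, Ccr2 was the only 1 whose groups did not overlap. By direction, 6 of these 10 were positive and 4 negative (median 0.13, log2), and 0 met the edgeR threshold.

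Ccr7, which guides dendritic cells, had 0.374, 0.322 and 1.36 FPKM in TP-18 libraries, against 1.95, 0.715 and 1.48 FPKM in vehicle libraries (log2 fold change -1.18 ± 0.65, edgeR adjusted p = 0.408). Without TP-18 3 it was -2.15, and with limma on log2(FPKM + 1) -0.52. Ccr8, the receptor of mouse Ccl8, and Ccr3, the receptor of Ccl24, were below the filter. Fewer cells of a type and less RNA per cell cannot be told apart in these bulk libraries.

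Beside the 10 genes, other CC ligands were scarce. Of the 11 listed, 10 were in the tables and 4 passed the filter (Ccl11, Ccl22, Ccl25 and Ccl28), with 0 past the test and a median log2 fold change of -0.30. The summed level of those in the tables was 3.1 to 3.7 FPKM in TP-18 and 3.5 to 4.7 FPKM in vehicle libraries, far below the sum of the 10 genes. Of the atypical and accessory receptors, 4 of 8 passed the filter and 0 the test, with a median of -0.40. The most abundant were Sdc4, a heparan sulfate proteoglycan, and Ccrl2, which presents chemerin, followed by the scavenging receptor gene Ackr3. Sdc4 had 242, 215 and 169.7 FPKM in TP-18 libraries, against 258, 276 and 284 FPKM in vehicle libraries, without overlap.

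All 26 listed genes of signalling below chemokine receptors were tested, of which 14 were positive and 12 negative. Their median log2 fold change was 0.01, and 0 of them met the edgeR threshold. Averaged over the 6 libraries the most abundant was the G protein gene Gnai2, which had 267, 255 and 310 FPKM in TP-18 libraries, against 265, 243 and 227 FPKM in vehicle libraries, and overlapped. Rgs1, a brake on G protein signalling and the highest of the list in vehicle libraries on average, and the GTPase gene Rac1 overlapped as well. Of the 26, 2 had every TP-18 library above every vehicle library and 4 had every TP-18 library below. Over all genes these shares were 11.6% and 11.7%. Of 14 genes inducible by interleukin-4 or interleukin-13, 13 were tested, 9 were negative, the median was -0.31 and 0 passed. Their summed level was 476, 1163 and 489.6 FPKM in TP-18 libraries, against 364, 1260.03 and 992 FPKM in vehicle libraries, highest in the 3 libraries where Ccl6 and Ccl24 were highest (vehicle 2, TP-18 2 and vehicle 3). Arg1, an arginine-degrading enzyme, Chil3, a chitinase-like protein, and Mrc1, which encodes CD206, were the most abundant. Chil3 ranged from 12.4 to 223 FPKM in TP-18 and from 5.57 to 461 FPKM in vehicle libraries. Arg1 and Chil3 were highest in the same 3 libraries as the sum, as was the less abundant Clec10a. Mrc1 was not, at 125, 180 and 161 FPKM in TP-18 libraries, against 137, 127 and 252 FPKM in vehicle libraries. Ccl22, Mgl2, Egr2 and Cdh1 were lowest in vehicle 2, so the order of the sum was not that of the whole list. The 7 genes of the interleukin-4 receptor and STAT6 pathway, led by Klf4, Stat6 and Il2rg, had a median of -0.13 with 0 past the test.

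Markers of cells that can make these chemokines moved with some of them. The 12 markers of resident-like macrophages, led by Pf4 and Selenop, summed to 391, 873 and 444 FPKM in TP-18 libraries, against 459, 1581 and 1491.5 FPKM in vehicle libraries. This is the order of libraries seen for Ccl6 in its 3 highest, with vehicle 1 again among the TP-18 libraries. Of the 12, 11 were negative on the log2 scale (median -1.16), and 0 met the threshold. The 12 general macrophage markers had a median of -0.20, with 8 negative and 0 past the test. Their summed level was 4680, 3449 and 5442 FPKM in TP-18 libraries, against 7418, 2997 and 8537 FPKM in vehicle libraries. It was lowest in vehicle 2, where Ccl2, Ccl3, Ccl4, Ccl6, Ccl9 and Ccl24 were highest. The markers C1qa, Adgre1 and Csf1r were also lowest in vehicle 2. Cd68, at 306 FPKM in vehicle 2, exceeded every TP-18 library there, and Fcgr1, at 53.2 FPKM, exceeded the other vehicle libraries.

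The 9 fibroblast markers, led by Col1a2 and Dcn, summed to 416, 379.7 and 326 FPKM in TP-18 libraries, against 247, 190.5 and 151 FPKM in vehicle libraries. These groups did not overlap, all 9 genes were positive on the log2 scale (median 0.89), and 0 met the threshold. The selections on CD11b named in the labels would be expected to remove fibroblasts. Mast cell markers likewise did not overlap, at 16.7, 26.4 and 8.2 FPKM in TP-18 libraries, against 4.1, 1.1 and 1.4 FPKM in vehicle libraries. Of the 6 mast cell genes 5 were tested and 0 met the threshold, and Mcpt4, Cma1 and Fcer1a had no count in at least 1 library. Ccl12 likewise had every TP-18 library above every vehicle library, as did 11.6% of all genes. Within the TP-18 group Ccl12 was lowest in TP-18 1, whereas both marker sums were lowest in TP-18 3. Ccl12 and the mast cell sum were both highest in TP-18 2. In vehicle libraries Ccl12 and the fibroblast sum fell in the same order. The part of these cell types in the chemokine values was not tested.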

How the data were processed

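The authors deposited raw counts per gene and, in a second table, FPKM values, which equal count over library total and 1 length per gene in all 17191 genes (relative tolerance 1e-06). The submitters' processing notes list fastp, HISAT2, HTSeq and GRCm38, with versions, settings, strand use and annotation release not given in the sources used here. No batch is named. The count test was edgeR 4.0.16 (R 4.3.3): filterByExpr defaults (minimum count 10, minimum total 15), TMM factors, quasi-likelihood test of TP-18 over vehicle without covariates, Benjamini-Hochberg adjustment over 12721 genes. CPM values use TMM-scaled library sizes. The standard error is the absolute log2 fold change over the square root of F, and 95% intervals use the t quantile at the total degrees of freedom. The test was first checked on simulated counts. Gene positions came from GENCODE M21 (GRCm38).

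Alternatives were RLE factors, library totals, DESeq2 1.42.0, limma 3.58.1 (voom, log2(FPKM + 1), log2(FPKM + 0.1)), 2 other filters, a replicate block and each library left out. Libraries of a group differed by more than sampling noise (chi-square over degrees of freedom 27.9 to 80.0), so none was a copy. Members and lists were chosen with earlier results of these data known. All 10 members were named, with the 3 most abundant of each program list and 2 of each marker list; other genes, and the promoter pairs, were chosen after their values were seen. Intervals cover the spread between libraries, and lists are described by counts and medians without a test of the list. Of the listed genes, 1 is not reported here.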

Additional observations from a re-analysis of the deposited data

How the results depend on the processing

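All 10 chemokines kept the direction of their fold change over the 15 alternatives, except Ccl8, which ran from -0.11 (without TP-18 3) to 1.01 (without vehicle 1) when 1 library was left out. The count of called chemokines was 0 in each alternative except DESeq2, which called 2. DESeq2 also called 4 genes of the ligand, receptor, signalling and interleukin-4 lists (Ccr1, Ccr2, Pik3r5 and Socs1), against 0 with edgeR, and the cause was not tested. Over all genes edgeR called 3 higher and 11 lower; DESeq2 called 160 and 339, no filter on low counts gave 7 and 20, limma on FPKM with either pseudocount gave 1 and 1, library totals gave 1 lower, and leaving out 1 library gave 0 to 3 higher and 0 to 5 lower. Library totals moved the median over all genes from 0.02 to 0.20 (log2). In CPM, which ignores gene length, 6 of 20 ranks of the chemokines within a group matched those in FPKM.

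With a replicate block 0 genes were called lower and 0 of the 10 chemokines were called. Same-numbered libraries deviated together at r = 0.14, 0.39 and -0.15 (number 1, 2 and 3), so the numbers were not taken to pair the samples. Counts of libraries within a group differed by 27.9 to 80.0 times what counting error gives (chi-square over degrees of freedom), so the spread between 3 libraries a group sets the precision.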

Other observations

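Other marker lists, summed in FPKM over the members found, were as follows. Neutrophil markers, led by S100a8 and S100a9, had 77.3, 240.4 and 67.6 in TP-18 libraries, against 40.3, 302 and 113 in vehicle libraries, highest in vehicle 2 and TP-18 2. Monocyte markers, led by Fn1 and Chil3, had 622 to 824 in TP-18 and 536 to 889 in vehicle libraries. Dendritic cell markers, led by Fscn1 and Batf3, had 40.2 to 48.0 in TP-18 and 34.4 to 54.6 in vehicle libraries. Endothelial markers, led by Pecam1 and Plvap, had 35.7 to 63.3 in TP-18 and 9.6 to 61.8 in vehicle libraries, with vehicle 1 the lowest. B cell markers, led by Cd79a and Cd79b, had 2.3 to 7.5 in TP-18 and 1.1 to 3.2 in vehicle libraries. Epithelial markers had 146 to 292 in TP-18 and 196 to 294 in vehicle libraries, and Sox9 was the 1 marker of these lists past the edgeR test (12.1, 11.7 and 10.7 in TP-18 libraries, against 31.6, 37.8 and 32.4 in vehicle libraries, adjusted p = 0.0137).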
